A study of Mus musculus with 10 samples.

Results

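The genes of ceramide and acylceramide synthesis were compared between the epithelium of the palatal gingiva, the gum facing the palate, and that of the buccal gingiva, the gum facing the cheek. The 41 members were taken by symbol from a deposited table of 55414 genes, and all 41 were found in it. They cover fatty acid elongases, sphingoid base synthesis, ceramide synthases and a hydroxylase, desaturases, the acylceramide and lipid envelope genes, transport and head group genes, ceramidases with a sphingosine phosphate phosphatase, and acid lipases. The samples were mouse gingival epithelium peeled with Dispase, 5 palatal and 5 buccal libraries of polyadenylated RNA, each numbered 1 to 5 within its side. Genotype, strain, age and treatment are not given in the labels, and nothing in them ties libraries to separate animals, so the tests here describe the spread between libraries, which may be partly technical. The design text of the series speaks of pooled mice kept germ-free or specific-pathogen-free, which is a contrast not analysed here, and the microbial status of these 10 libraries is not given.

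Ceramides are built from a sphingoid base, made from serine and a fatty acyl chain, to which a ceramide synthase attaches a further fatty acid. In cornifying epithelium some of these fatty acids are elongated far beyond the usual length, hydroxylated at their end and esterified with linoleate. The resulting acylceramides are secreted from lamellar granules and, after oxidation of the linoleate, form the lipid envelope that seals the cornified cell. Loss of several of these genes, among them Abca12, Alox12b, Cers3, Elovl4 and Pnpla1, gives a defective skin barrier in mice.

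Total counts were 25868777 to 35583168 in palatal and 29317011 to 37234192 in buccal libraries. Defining keratins of epithelium were abundant. Krt5 lay between 4032 and 4813 CPM (counts scaled to a common library size) in palatal and between 4237 and 5037 CPM in buccal libraries. Of 7 fixed basal keratinocyte markers 4 were higher and 0 lower in palatal, and of 12 tested suprabasal markers 6 were higher and 6 lower. Several suprabasal differences were large. Krt76 and Krt10 were 18.9-fold and 4.58-fold higher in palatal, and Flg, the gene of filaggrin, was 7.48-fold higher. Krt4 was 4.19-fold lower in palatal, and Krt1 was 3.77-fold lower (edgeR adjusted p from 3.28e-12 for Krt76 to 1.06e-06 for Krt1). Ivl, Dsc1 and Dsg1a were also higher (log2 fold change 1.86, 1.67 and 0.98). Krt13, Lor, Tgm3 and Grhl3 were also lower (-0.76, -0.58, -0.34 and -0.33). These markers differed between the same 2 sides as the lipid genes described here, and their part in the results was not tested. Other cell types also differed. Of 9 leukocyte markers 8 were lower and 1, Itgam, higher. Their summed levels were 48.8 to 62.4 CPM in palatal and 119 to 204 CPM in buccal libraries. Most of this came from Cd74, with means of 33.5 CPM in palatal and 121 CPM in buccal epithelium. The 7 fibroblast markers summed to 70.1 to 89.3 CPM in palatal and 6.82 to 12.9 CPM in buccal libraries, of which Dcn gave most (means of 73.3 CPM in palatal and 6.61 CPM in buccal epithelium), while Col1a1, Col1a2 and Col3a1 did not pass the test and averaged under 2 CPM on both sides. Of 9 sebaceous markers, 5 were tested, 1 was higher and 2 lower. Their sums were 33.5 to 44.7 CPM in palatal and 52.6 to 86.2 CPM in buccal libraries, mostly from Far2, which was lower. Awat2 was also lower (means of 0.552 CPM in palatal and 1.07 CPM in buccal epithelium). Soat1 was higher (8.87 CPM in palatal and 4.69 CPM in buccal epithelium). Awat1 and Mc5r stayed below 0.06 CPM in every library. Adipocyte markers summed to at most 1.13 CPM. What part these cells had in the results was not tested, and in such bulk samples fewer cells of a type and less RNA per cell cannot be told apart.

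Palatal epithelium had lower levels of most tested genes of fatty acid elongation and of both desaturase genes, and higher levels of several member genes of sphingomyelin turnover and ceramide breakdown. The neutral ceramidase gene Asah2, not a member, went the other way and was 3.29-fold lower in palatal. All 4 elongase genes that passed the test, the serine palmitoyltransferase genes Sptlc1, Sptlc2 and Sptlc3, and both desaturase genes were lower in palatal. The ceramide synthase gene Cers4 was higher by 3.86-fold, and the sphingomyelin synthase genes Sgms1 and Sgms2, the sphingomyelinase gene Smpd3 and the ceramidase genes Acer1 and Acer3 were also higher. Of 7 acylceramide and lipid envelope genes 0 were higher and 3 lower, with a median log2 fold change of 0.04. Of all tested genes 38.9% passed in either direction and 20.3% were lower, and 7 genes are too few to set this count apart from that share. The other steps hold fewer tested genes, and their counts below carry the same limit. A total of 39 members had enough counts to be tested, and 9 were higher and 16 lower in palatal at an adjusted p below 0.05 (edgeR quasi-likelihood F-test, Benjamini-Hochberg over all 14062 tested genes). That is 64.1% of tested members, against 38.9% of all tested genes. By direction it is 23.1% higher against 18.7%, and 41% lower against 20.3%. Most differences were small. The median log2 fold change was -0.08 over members and 0.01 over all genes, the median of its absolute value was 0.30 and 0.22, and 5 members passed with at least a 2-fold difference, 12.8% of those tested, against 10.2% of all tested genes. The 2 sides did not overlap for 15 members, 7 with palatal above and 8 with palatal below buccal, where 28.3% of all tested genes showed such separation.

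**Figure D1:**
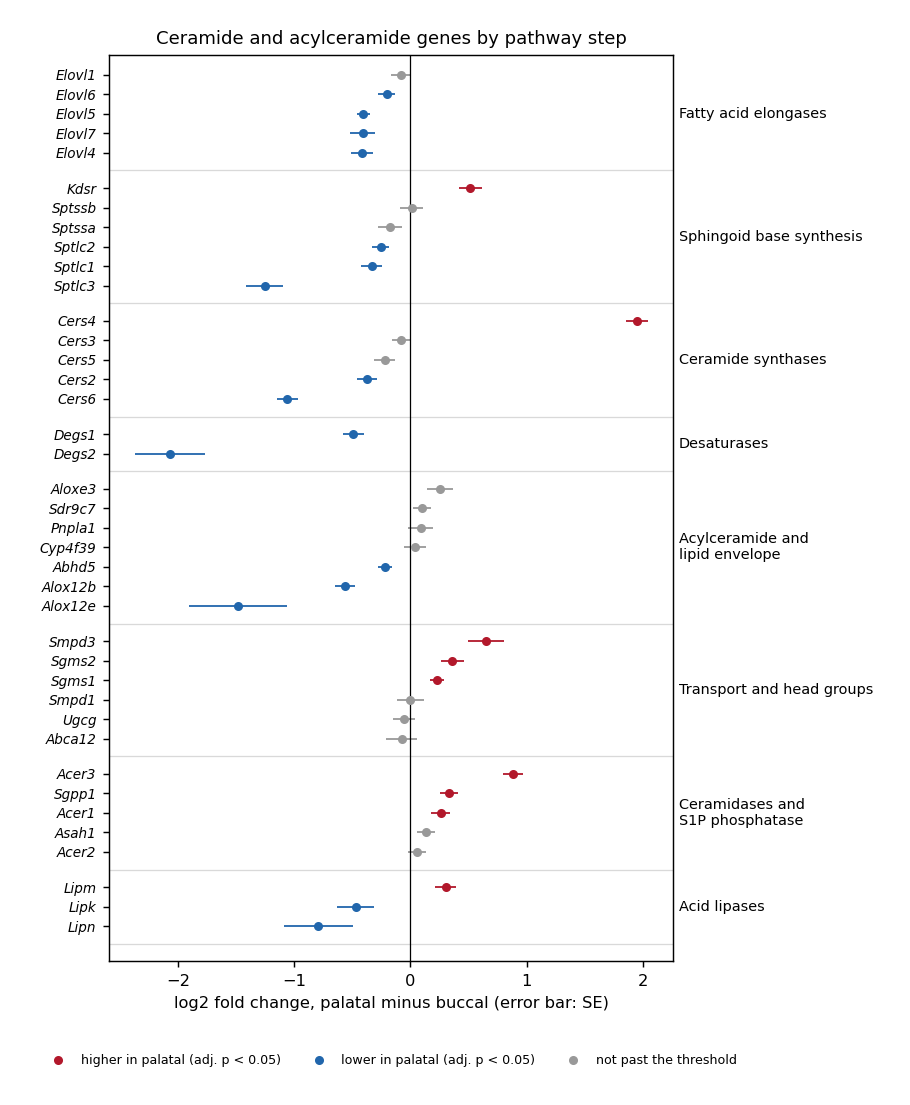
Log2 fold change (palatal minus buccal, x axis, error bars SE) of the 39 tested members, grouped by pathway step from top to bottom, with colour for the direction among members past the threshold. No elongase or desaturase lies to the right of 0 and past the threshold, the 6 members past it in the transport, head group and ceramidase steps all lie to the right, and Cers4 at 1.95 lies farthest right.

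Fatty acid elongases set the chain length that a ceramide receives. Of 6 listed, 5 were tested, 0 rose and 4 fell (median log2 fold change -0.40), where 20.3% of all tested genes were lower. Elovl4, which makes the ultra-long chains of acylceramides, had 409.7, 495, 421, 465 and 525 CPM in palatal libraries 1 to 5, against 512, 597, 658, 672 and 655 CPM in buccal libraries 1 to 5. The sides overlapped only through palatal library 5 and buccal library 1, and the difference was -0.42 ± 0.09 (log2 fold change, SE; edgeR adjusted p = 0.00222, n = 5 per side). Elovl5, which extends polyunsaturated chains, was at 64.8 ± 3.93 CPM in palatal and 85.7 ± 2.57 CPM in buccal epithelium (SD, n = 5 each), with no overlap. Elovl7, an elongase of very long saturated chains, fell by 0.41 ± 0.11 log2 units. Elovl6, which extends palmitate, fell by 0.20 ± 0.07 (edgeR adjusted p = 0.0318). Its call was lost without palatal library 1 or 3 (adjusted p = 0.10 and 0.0961) or buccal library 3, 4 or 5 (0.0782, 0.0757 and 0.0724). Elovl1, which supplies very long saturated chains to ceramides, stood at -0.08 ± 0.09 (edgeR adjusted p = 0.494). Per kilobase of exon, Elovl4 and Elovl1 were the most abundant of the family on both sides, at 154 and 141 CPM per kb in palatal and 206 and 149.6 CPM per kb in buccal epithelium. Elovl3, the elongase of mouse sebaceous gland and brown fat, had 0 counts in all 10 libraries, which allows up to 0.119 CPM in the shallowest of them.

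Sphingoid base synthesis starts with serine palmitoyltransferase, a complex of Sptlc1 with a catalytic subunit, Sptlc2 or Sptlc3, and a small activating subunit. Of its 6 genes 1 rose and 3 fell, where 18.7% of all tested genes were higher and 20.3% lower. Sptlc3 had 28.2, 39.2, 33.7, 40.9 and 51.1 CPM in palatal libraries 1 to 5, against 67.3, 82.2, 103, 101 and 107 CPM in buccal libraries 1 to 5. Every palatal library lay below every buccal one, and the level was 2.39-fold lower in palatal (log2 fold change -1.25 ± 0.16, edgeR adjusted p = 4.66e-05). The other catalytic gene, Sptlc2, fell less, by 0.26 ± 0.07 log2 units (edgeR adjusted p = 0.0128), and Sptlc1 by 0.33 ± 0.09. Small subunit genes did not pass the test. Sptssb stood at 0.01 ± 0.10, with 157 ± 27.7 CPM in palatal and 155 ± 9.98 CPM in buccal libraries (SD, n = 5 each). Sptssa stood at -0.17 ± 0.10 (edgeR adjusted p = 0.205) and passed without palatal library 4 (adjusted p = 0.0382). Kdsr, the reductase that follows the transferase, went the other way, with 27.3, 28.8, 27.5, 36.6 and 30.1 CPM in palatal libraries, against 17.7, 20.3, 21.1, 24.4 and 21.4 CPM in buccal libraries. The sides did not overlap for Kdsr, and the difference was 0.52 ± 0.10 (edgeR adjusted p = 6.65e-04).

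Ceramide synthases each prefer fatty acids of a certain length, and the family changed its makeup. Of 5 tested, 1 rose and 2 fell, where 18.7% of all tested genes were higher and 20.3% lower. Cers4, which prefers long to very long chains, had 82.9, 79.8, 78.1, 77.2 and 73.5 CPM in palatal libraries 1 to 5, against 23.2, 24.1, 19.5, 16.7 and 17.9 CPM in buccal libraries 1 to 5. The lowest palatal library stood far above the highest buccal one, with a log2 fold change of 1.95 ± 0.10 (edgeR adjusted p = 1.08e-09, n = 5 per side). Cers6, which prefers palmitoyl chains, had 8.74, 11.6, 10.5, 10.6 and 12.2 CPM in palatal libraries, against 22.8, 22.6, 23.6, 20.6 and 22.0 CPM in buccal libraries. Again the sides were apart, with palatal 2.08-fold lower (log2 fold change -1.06 ± 0.09, edgeR adjusted p = 2.61e-07). Cers2, which makes ceramides with very long chains, fell by 0.37 ± 0.09, with no overlap. Cers5, another palmitoyl-preferring synthase, stood at -0.22 ± 0.09 (edgeR adjusted p = 0.0676) and passed without buccal library 2 (adjusted p = 0.0235). Cers3, the synthase of ultra-long acylceramides, was at 209 ± 19.9 CPM in palatal and 222 ± 18.6 CPM in buccal epithelium (SD, n = 5 each; log2 fold change -0.08 ± 0.08, edgeR adjusted p = 0.461). Fa2h, which hydroxylates ceramide fatty acids, had 3 counts over all palatal libraries and 0 over all buccal ones, too few for a test.

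**Figure D2:**
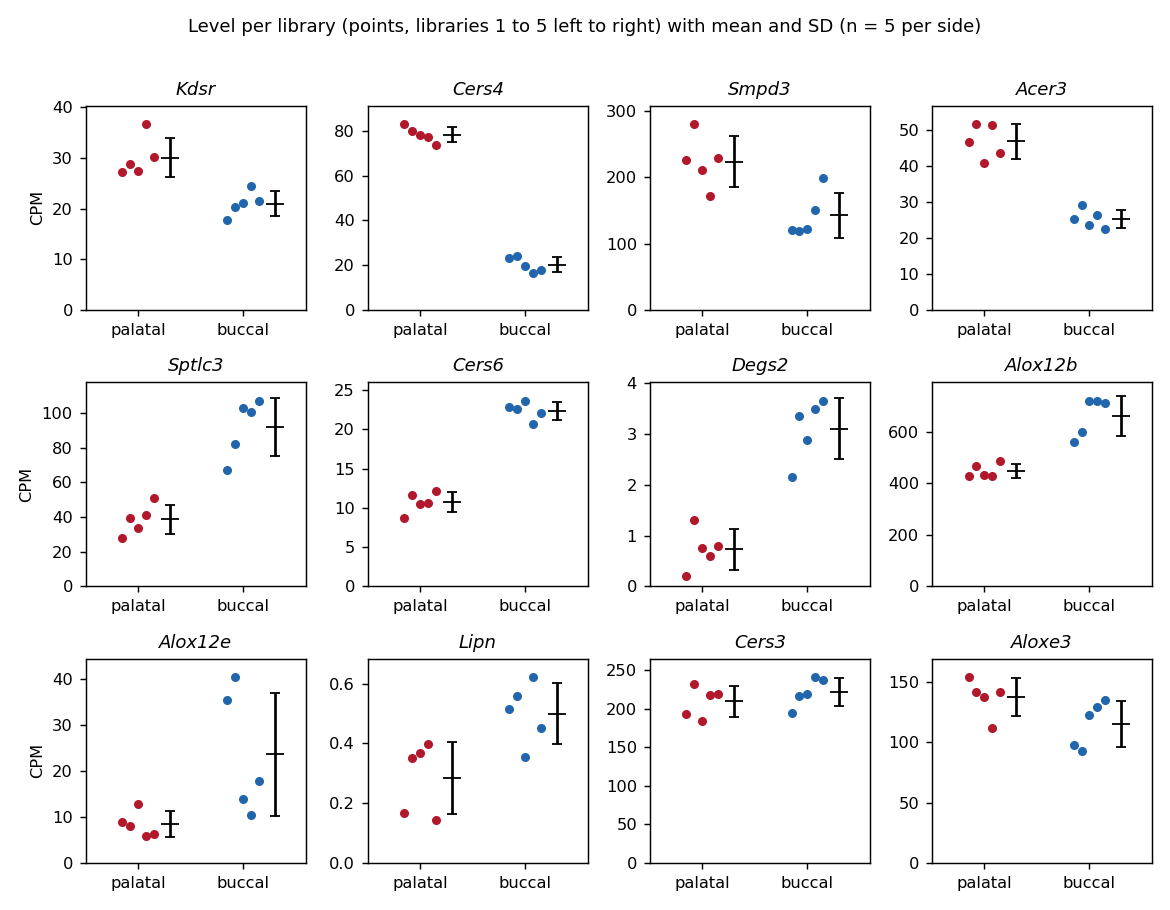
CPM per library of 12 members (points, palatal left of buccal, libraries 1 to 5 from left to right within a side) with the mean and SD beside them (n = 5 per side), each panel with its own axis from 0. Palatal points lie above all buccal ones for Kdsr, Cers4 and Acer3 and below them for Sptlc3, Cers6, Degs2 and Alox12b, and the sides overlap for Smpd3, Alox12e, Lipn, Cers3 and Aloxe3.

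Set per kilobase of merged exon, Cers3 dominated the family on both sides. It held 76.6% ± 2.27 of the summed level of Cers2 to Cers6 in palatal and 79.5% ± 2.51 in buccal libraries (SD, n = 5 each). The share of Cers4 was 9.89% ± 0.910 in palatal and 2.53% ± 0.523 in buccal libraries, and that of Cers6 was 1.81% ± 0.171 in palatal and 3.71% ± 0.349 in buccal libraries. The sum of the family was close on the 2 sides, at 83.9 ± 5.77 CPM per kb in palatal and 85.5 ± 4.56 in buccal epithelium. Of the catalytic transferase subunits, Sptlc3 held 43.9% ± 3.63 in palatal and 61.0% ± 3.80 in buccal libraries, and the summed level of Sptlc2 and Sptlc3 was 30.7 ± 4.35 CPM per kb in palatal and 52.8 ± 6.88 in buccal epithelium. The merged exons of Cers4 span 9.475 kb, more than those of the other synthases, and its level per kb depends on that length.

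**Figure D3:**
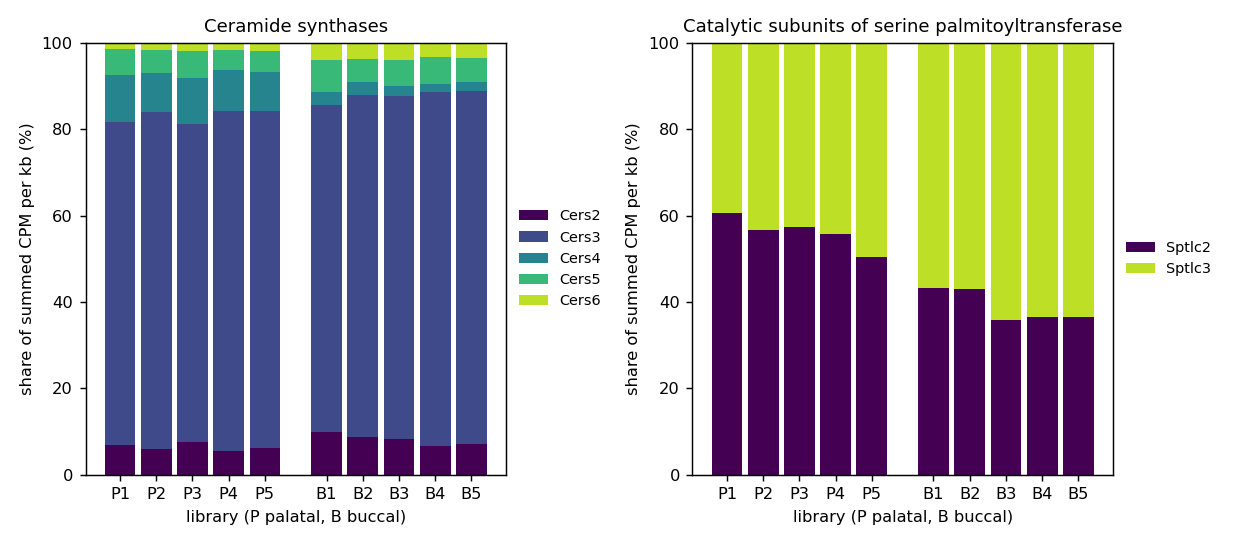
Share of the summed CPM per kb (y axis, %) held by each ceramide synthase gene (left) and by each catalytic subunit gene of serine palmitoyltransferase (right), 1 bar per library, palatal libraries left of buccal ones. Cers3 is the widest band in every library, the Cers4 band is wider in all 5 palatal libraries, and Sptlc3 holds less than 50% in all 5 palatal and more than 50% in all 5 buccal libraries.

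Promoters are shown for these pairs of alternative enzymes, since their members differed in how they changed: Cers4 and Cers3, and Sptlc3 and Sptlc2. The sequences are RefSeq's, 250 bases before to 50 after the start of transcription, of build GRCm38.p6, 5′ to 3′ on the gene's strand. They lie at chr8:4493155-4493454 (plus strand), chr7:66743254-66743553 (plus strand), chr2:139493663-139493962 (plus strand) and chr12:87388306-87388605 (minus strand). Capitals mark matches on either strand to TATAAA (the TATA box), CCAAT (the CCAAT box), GGGCGG (the GC box), TGANTCA (bound by AP-1) or AACCNGTT (bound by grainyhead-like factors).
Cers4: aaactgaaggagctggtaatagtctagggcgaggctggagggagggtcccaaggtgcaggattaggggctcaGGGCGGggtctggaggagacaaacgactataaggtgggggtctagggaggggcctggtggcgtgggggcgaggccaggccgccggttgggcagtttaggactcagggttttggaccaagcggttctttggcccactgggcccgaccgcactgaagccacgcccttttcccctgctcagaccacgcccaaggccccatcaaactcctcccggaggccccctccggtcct
Cers3: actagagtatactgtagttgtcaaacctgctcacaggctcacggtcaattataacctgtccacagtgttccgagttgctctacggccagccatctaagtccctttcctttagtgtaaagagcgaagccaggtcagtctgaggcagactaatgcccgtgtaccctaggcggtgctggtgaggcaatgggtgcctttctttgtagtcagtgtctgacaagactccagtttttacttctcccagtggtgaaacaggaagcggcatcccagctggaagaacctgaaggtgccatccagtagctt
Sptlc3: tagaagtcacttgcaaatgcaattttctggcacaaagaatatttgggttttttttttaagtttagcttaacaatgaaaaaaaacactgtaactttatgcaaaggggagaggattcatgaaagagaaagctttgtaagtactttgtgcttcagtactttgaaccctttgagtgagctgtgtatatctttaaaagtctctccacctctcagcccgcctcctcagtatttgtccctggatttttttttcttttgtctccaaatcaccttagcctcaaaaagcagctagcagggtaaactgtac
Sptlc2: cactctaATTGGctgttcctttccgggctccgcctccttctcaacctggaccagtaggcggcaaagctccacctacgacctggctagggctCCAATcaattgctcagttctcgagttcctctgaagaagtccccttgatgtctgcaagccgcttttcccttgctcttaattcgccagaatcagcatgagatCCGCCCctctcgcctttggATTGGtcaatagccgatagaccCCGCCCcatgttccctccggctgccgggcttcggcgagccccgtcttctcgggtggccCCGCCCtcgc
The Cers4 window holds 1 GGGCGG match and is 64.3% G or C. No searched motif was found in the Cers3 and Sptlc3 windows, which are 50.7% and 37.3% G or C. The Sptlc2 window holds 3 CCAAT and 3 GGGCGG matches and is 59.3% G or C. GGGCGG is in 35.7% and CCAAT in 37.4% of all 32851 RefSeq promoter windows, while TGANTCA is in 7.81%, TATAAA in 13.6% and AACCNGTT in 2.09%. Promoters were found for 35 of the 41 members. Of their 46 windows 54.3% hold GGGCGG, 34.8% CCAAT, 10.9% TGANTCA, 4.35% TATAAA and 2.17% AACCNGTT. A match describes letters only and says nothing of a factor bound there.

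Desaturases finish the ceramide backbone, and both fell in palatal. Degs1, which inserts the double bond of sphingosine, was at 168 ± 14.0 CPM in palatal and 237 ± 31.0 CPM in buccal epithelium (SD, n = 5 each; log2 fold change -0.49 ± 0.09, edgeR adjusted p = 6.52e-04). Degs2, which can also hydroxylate the base to form phytoceramide, had 0.199, 1.31, 0.762, 0.598 and 0.794 CPM in palatal libraries 1 to 5, against 2.16, 3.35, 2.87, 3.49 and 3.65 CPM in buccal libraries 1 to 5. Its sides did not overlap, and it was 4.2-fold lower in palatal (log2 fold change -2.07 ± 0.30, edgeR adjusted p = 8.42e-05). Its counts were few, 111 over the palatal and 496 over the buccal libraries.

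Acylceramide and lipid envelope genes showed 0 rises and 3 falls among 7 tested, where 38.9% of all tested genes passed, with a median log2 fold change of 0.04. Cyp4f39, the mouse hydroxylase of the far end of ultra-long fatty acids, had 198, 249, 199.7, 189.6 and 197 CPM in palatal libraries, against 201, 173, 187, 222 and 223 CPM in buccal libraries (log2 fold change 0.04 ± 0.09, edgeR adjusted p = 0.768). Pnpla1, which transfers linoleate onto the hydroxylated ceramide, had 84.5, 95.1, 82.6, 86.4 and 98.6 CPM in palatal libraries, against 70.7, 68.5, 83.9, 95.6 and 102 CPM in buccal libraries (0.09 ± 0.11, edgeR adjusted p = 0.551). In both genes the sides overlapped widely. Abhd5, a co-activator of Pnpla1, had 77.9, 90.8, 84.8, 85 and 82.5 CPM in palatal libraries, against 93.1, 95.4, 99.4, 98.4 and 104 CPM in buccal libraries. Its sides were separate and differed by -0.22 ± 0.06 (edgeR adjusted p = 0.00864). Alox12b, the lipoxygenase that begins oxidation of the esterified linoleate, had 428, 466, 433, 428 and 487 CPM in palatal libraries, against 559, 598, 720.3, 721 and 713 CPM in buccal libraries. All palatal libraries lay below all buccal ones, by -0.56 ± 0.09 (edgeR adjusted p = 1.00e-04). Its successor in the reaction, Aloxe3, had 154, 142, 138, 112 and 142 CPM in palatal libraries, against 97.6, 92.5, 123, 129 and 135 CPM in buccal libraries. The sides overlapped, and Aloxe3 stood at 0.25 ± 0.11 (edgeR adjusted p = 0.0900), passing only without palatal library 4 or buccal library 5 (adjusted p = 0.0312 and 0.0441) among the alternatives run.

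Alox12e, an epidermal lipoxygenase gene of the mouse, had 8.91, 8.01, 12.9, 5.78 and 6.32 CPM in palatal libraries, against 35.5, 40.5, 14.0, 10.5 and 17.8 CPM in buccal libraries. Buccal libraries 1 and 2 stood well above the rest, while buccal library 4 lay inside the palatal range. The log2 fold change was -1.49 ± 0.42 (edgeR adjusted p = 0.0204), and the call was lost without palatal library 5 (adjusted p = 0.0501) and without library 2 of both sides (-1.18, adjusted p = 0.0690). The counting mode is not given in the sources used here, so reads shared with similar lipoxygenase genes are uncertain. Sdr9c7, which oxidises the lipoxygenase product further, had 110.2, 124, 109.6, 118 and 126 CPM in palatal libraries, against 92.9, 102, 116, 116 and 122 CPM in buccal libraries (0.10 ± 0.08, edgeR adjusted p = 0.340). Its sides overlapped.

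Transport and head group genes had 3 rises and 0 falls among 6, where 38.9% of all tested genes passed and 18.7% were higher. Smpd3, the neutral sphingomyelinase of the plasma membrane, had 226, 280.1, 211, 173 and 229 CPM in palatal libraries 1 to 5, against 121, 119, 122, 151 and 199 CPM in buccal libraries 1 to 5. Only buccal library 5 reached into the palatal range, and the difference was 0.65 ± 0.15 (edgeR adjusted p = 0.00475). Sgms1, the Golgi sphingomyelin synthase, was at 107 ± 6.99 CPM in palatal and 91.2 ± 1.84 CPM in buccal epithelium, and Sgms2, that of the plasma membrane, at 7.5 ± 0.432 CPM in palatal and 5.84 ± 0.742 CPM in buccal epithelium (SD, n = 5 each). Neither gene's sides overlapped. Ugcg, which makes glucosylceramide, Abca12, which loads it into lamellar granules, and Smpd1, the acid sphingomyelinase, stood at -0.06 ± 0.10, -0.08 ± 0.13 and 0.00 ± 0.11 (edgeR adjusted p = 0.692, 0.691 and 0.996). Abca12 was at 303 ± 40.9 CPM in palatal and 319.6 ± 63.3 CPM in buccal epithelium.

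Ceramidases split ceramide into sphingosine and a fatty acid. With the phosphatase gene Sgpp1 the listed members showed 3 rises and 0 falls among 5, where 38.9% of all tested genes passed and 18.7% were higher. The neutral ceramidase gene Asah2 and the phosphatase gene Sgpp2, which belong to the companion list, both fell (log2 fold change -1.72 ± 0.11 and -1.33 ± 0.12). Acer3, an alkaline ceramidase, had 46.6, 51.6, 40.7, 51.4 and 43.7 CPM in palatal libraries 1 to 5, against 25.3, 29.0, 23.6, 26.3 and 22.4 CPM in buccal libraries 1 to 5. The sides were far apart, with palatal 1.85-fold higher (log2 fold change 0.89 ± 0.09, edgeR adjusted p = 1.49e-06). Sgpp1, which returns sphingosine phosphate to sphingosine, was at 125 ± 9.57 CPM in palatal and 99.0 ± 9.7 CPM in buccal epithelium, with no overlap (0.33 ± 0.08, edgeR adjusted p = 0.00298). Acer1, the alkaline ceramidase typical of epidermis, rose by 0.26 ± 0.08 (edgeR adjusted p = 0.0229), a call lost without palatal library 2 (adjusted p = 0.0584) or buccal library 2 or 3 (0.0564 and 0.0506), and without library 2 of both sides (0.115). Acer2 of the Golgi and the lysosomal Asah1 stood at 0.06 ± 0.08 and 0.13 ± 0.08 (edgeR adjusted p = 0.604 and 0.184). Per kilobase, Acer1 held 68.7% ± 1.63 of the summed level of these 4 ceramidase genes in palatal and 68.6% ± 2.98 in buccal libraries, and Acer3 held 7.42% ± 0.424 in palatal and 4.85% ± 0.728 in buccal libraries. Their sum was 55.2 ± 3.41 CPM per kb in palatal and 46.0 ± 3.78 in buccal epithelium (SD, n = 5 each), with no overlap. With Asah2 added it was 59.1 ± 3.62 CPM per kb in palatal and 58.8 ± 4.34 in buccal epithelium, and the sides overlapped. Both sums depend on the merged exon lengths, which are 9.484 kb for Asah2 and 11.424 kb for Acer3 but 2.429 kb for Acer1. Before division by length Asah2 was at 36.9 CPM in palatal and 121 CPM in buccal epithelium, so a sum in CPM gives it more weight.

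Acid lipases of differentiating keratinocytes split by gene. Lipm was at 199.7 ± 15.3 CPM in palatal and 162 ± 20.6 CPM in buccal epithelium, with no overlap (0.30 ± 0.09, edgeR adjusted p = 0.0142, and 0.0574 without library 2 of both sides). Lipk was at 39.9 ± 7.48 CPM in palatal and 55.2 ± 12.1 CPM in buccal epithelium (-0.47 ± 0.16, edgeR adjusted p = 0.0345). Without palatal library 1, 2 or 3 the adjusted p of Lipk was 0.0804, 0.0501 and 0.0865, and without buccal library 3, 4 or 5 it was 0.0792, 0.0743 and 0.0815. Lipn was near the detection limit, with 0.166, 0.351, 0.367, 0.398 and 0.144 CPM in palatal libraries, against 0.515, 0.558, 0.354, 0.622 and 0.453 CPM in buccal libraries. These sides overlapped, and the fall of -0.79 ± 0.30 only just passed (edgeR adjusted p = 0.0492). The call was lost on leaving out any 1 of palatal libraries 1, 2, 3 and 5 (adjusted p = 0.120, 0.0540, 0.0509 and 0.117) or buccal libraries 1, 2, 4 and 5 (0.0818, 0.0866, 0.109 and 0.0651). Lipk, Lipn and Lipm lie side by side on chromosome 19, with 0 protein-coding genes between neighbours in the RefSeq annotation of GRCm38.p6. Aloxe3 and Alox12b are likewise adjacent on chromosome 11.

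Ratios of 2 genes within a library do not depend on how libraries are scaled, so 8 pairs of alternative or successive enzymes were compared by permuting the side labels exhaustively (exact, two-sided), for which the smallest p is 0.00794. The log2 ratio of Cers4 to Cers3 counts was -1.42 ± 0.17 in palatal and -3.46 ± 0.34 in buccal libraries (SD, n = 5 each), a difference of 2.04. For Sptlc3 over Sptlc2 it was -1.59 ± 0.21 in palatal and -0.59 ± 0.23 in buccal libraries, and for Degs2 over Degs1 -8.03 ± 0.89 in palatal and -6.26 ± 0.12 in buccal libraries. Alox12b over Aloxe3 was 1.71 ± 0.17 in palatal and 2.53 ± 0.11 in buccal libraries, a difference of -0.82. These 4 pairs did not overlap between the sides and each had the smallest p (exact p = 0.00794, 0.0159 adjusted over the 8 pairs). The pairs were chosen with earlier results of these data known. Sptssb over Sptssa differed by 0.18 and Elovl4 over Elovl1 by -0.34 (exact p = 0.0317 and 0.0397, adjusted 0.0508 and 0.0529). Sgms2 over Sgms1 differed by 0.14 and Acer1 over Asah1 by 0.13 (exact p = 0.175 and 0.246, adjusted 0.200 and 0.246). The sides overlapped in these last 4. The pair Sptssb and Sptssa passed without palatal library 2 (0.23, exact test adjusted p = 0.0254), and Elovl4 and Elovl1 passed without palatal library 5 or buccal library 1 (-0.40 and -0.39, adjusted p = 0.0381 in both).

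**Figure D4:**
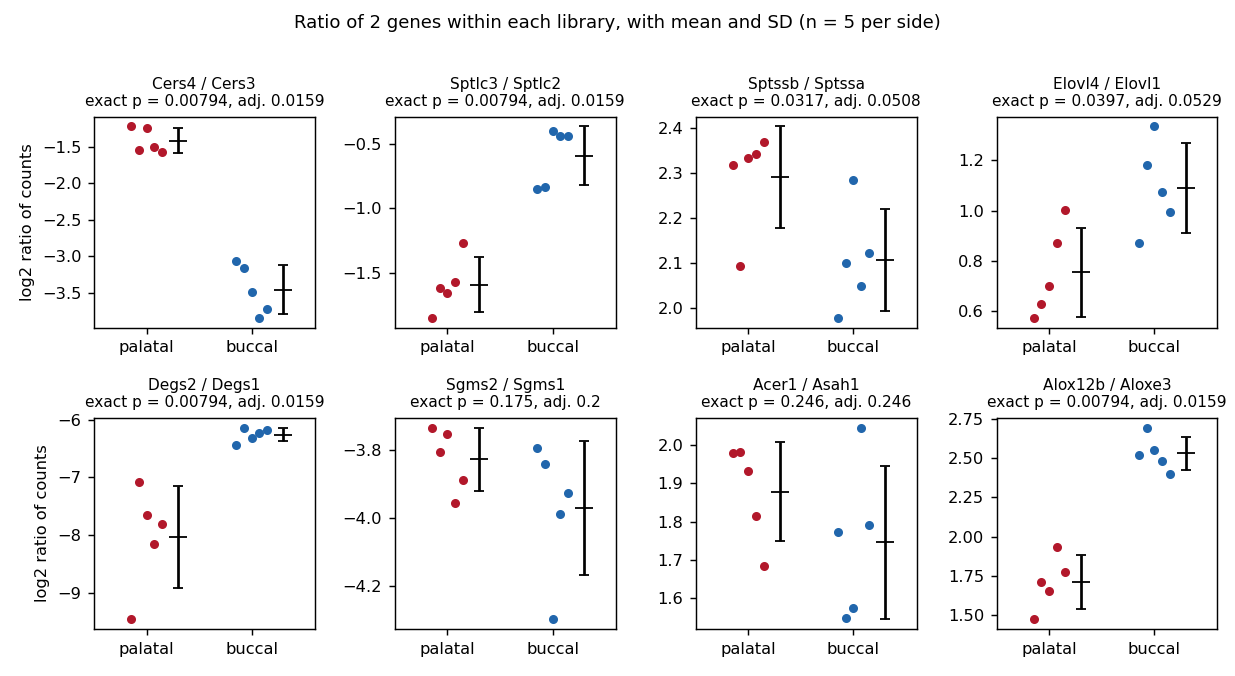
Log2 ratio of counts of 2 genes (y axis) in each library for 8 pairs, palatal left of buccal, with the mean and SD (n = 5 per side) and the exact permutation p, raw and adjusted over the 8 pairs. The sides are separate for Cers4 over Cers3, Sptlc3 over Sptlc2, Degs2 over Degs1 and Alox12b over Aloxe3 and overlap for the other 4 pairs.

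Further genes of sphingolipid and barrier lipid metabolism were drawn from a list of 70 symbols, of which 67 matched the table and 63 were tested. Of these 11 were higher and 27 lower in palatal (60.3% past the threshold, against 38.9% of all tested genes), with a median log2 fold change of -0.09. In the group listed as lipid envelope partners 0 of 11 rose and 6 fell. The group is wider than envelope formation, since it also holds the lipid droplet gene Plin2 and the lysosomal gene Ppt1. Tgm1, Vps33b and Vipas39 were among its 5 genes that did not pass the test. They stood at -0.08 ± 0.07, 0.18 ± 0.08 and 0.05 ± 0.06 (edgeR adjusted p = 0.383, 0.0751 and 0.568). Plin2, a lipid droplet coat gene, was at 25.5 ± 1.39 CPM in palatal and 77.4 ± 12.3 CPM in buccal epithelium (SD, n = 5 each; log2 fold change -1.60 ± 0.10). Ephx3, an epoxide hydrolase that acts on lipoxygenase products in epidermis, fell by 0.93 ± 0.09, and so did Sult2b1, which makes cholesterol sulfate, by 0.93 ± 0.10. Ppt1, a lysosomal thioesterase gene, fell by 0.65 ± 0.08 (edgeR adjusted p from 1.30e-08 for Plin2 to 2.05e-05 for Ppt1). The sides did not overlap for Plin2, Ephx3, Sult2b1 or Ppt1.

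Of 17 tested elongation partners and fatty acid supply genes, 4 rose and 10 fell. Over all tested genes 18.7% were higher and 20.3% lower, shares that stand beside each group count in this paragraph. The rises were in Scd1, Scd2, Acsl3 and Hacd1. Scd2 was at 357 ± 37.4 CPM in palatal and 261 ± 25.9 CPM in buccal epithelium, with no overlap. Among the falls, Fads2, the entry desaturase of polyunsaturated fatty acids, was at 10.6 ± 1.05 CPM in palatal and 18.4 ± 1.06 CPM in buccal epithelium. Hacd4, of the dehydratase family of elongation, was at 1.87 ± 0.213 CPM in palatal and 3.95 ± 0.623 CPM in buccal epithelium (edgeR adjusted p = 2.76e-06 for Fads2 and 2.76e-05 for Hacd4). Its more abundant relatives differed less. Hacd2, at 70.3 CPM in palatal, fell by 0.26 ± 0.09, and Hacd3, at 61.9 CPM, stood at -0.04 ± 0.07 (edgeR adjusted p = 0.724). Among genes that process complex sphingolipids 2 of 16 rose and 6 fell. The largest of these falls was in Asah2, the neutral ceramidase, with 36.9 ± 6.33 CPM in palatal and 121 ± 13.3 CPM in buccal epithelium (-1.72 ± 0.11, edgeR adjusted p = 2.82e-08). It moved opposite to Acer3 and Acer1. Of 12 sphingosine phosphate genes 3 rose and 3 fell. Sgpp2 fell by 1.33 ± 0.12 (edgeR adjusted p = 1.28e-06), opposite to its relative Sgpp1. S1pr2 and S1pr5 fell less, by 0.47 ± 0.10 and 0.27 ± 0.08. The rises were in Sphk1 (1.05 ± 0.15), S1pr3 (0.79 ± 0.22) and Plpp1 (0.67 ± 0.10), and the sides did not overlap for Sphk1 and Plpp1. Of 7 genes of ceramide transfer and control of synthesis 2 rose, Ormdl1 and Cerk, and 2 fell, Samd8 and Cert1.

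**Figure D5:**
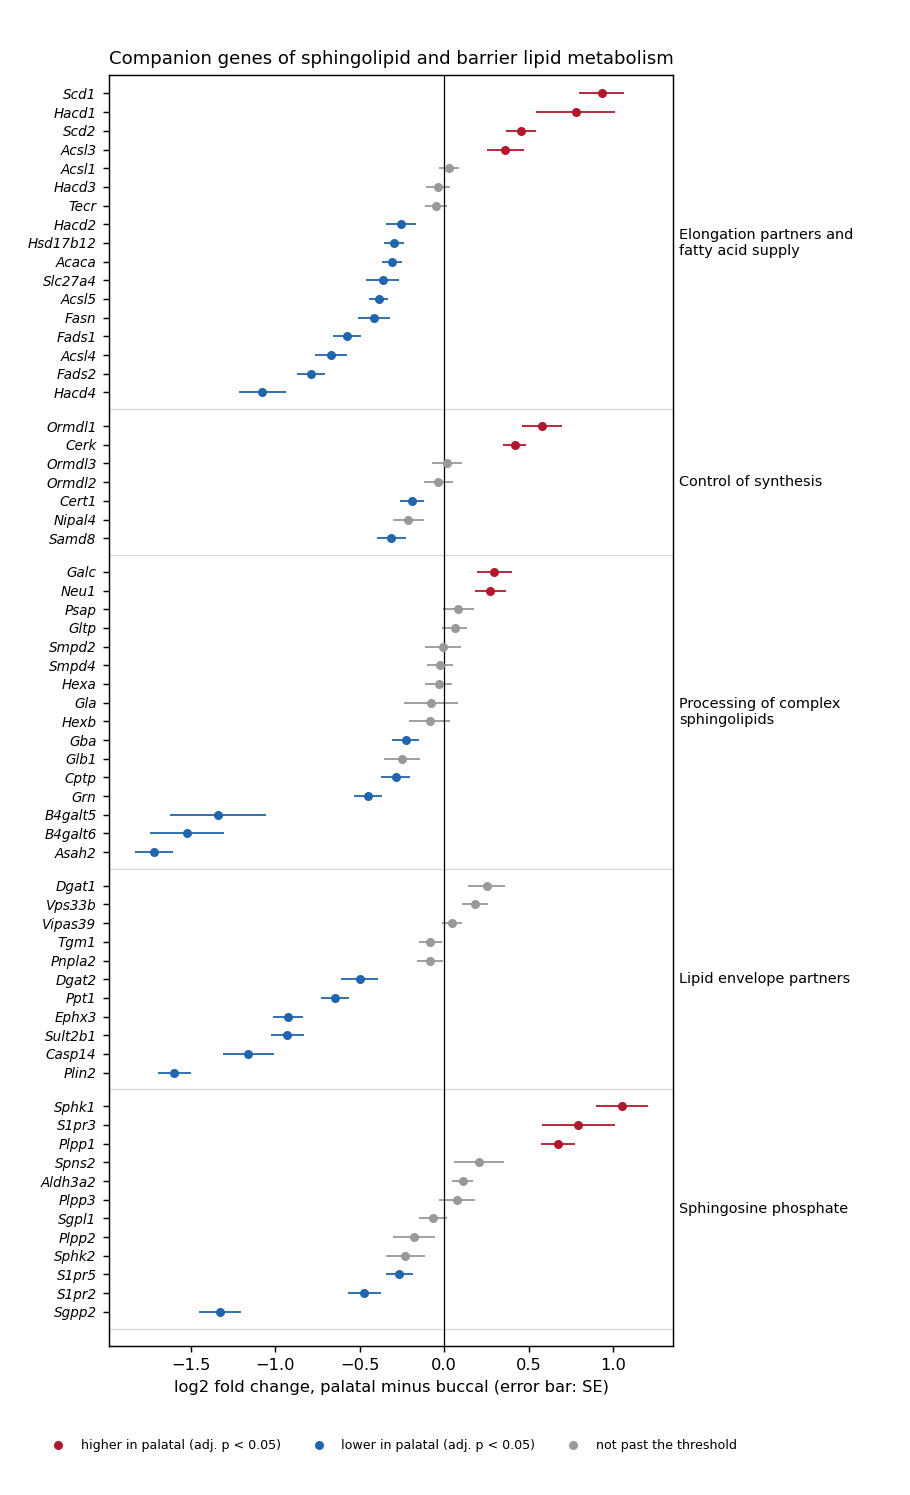
Log2 fold change (palatal minus buccal, x axis, error bars SE) of the 63 tested companion genes in 5 groups, with colour for the direction among those past the threshold. Asah2 at -1.72 and Plin2 at -1.60 lie farthest left. No gene of the group labelled lipid envelope partners, which is wider than envelope formation, lies right of 0 and past the threshold.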

How the data were processed

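RNA came from Dispase-separated gingival epithelium and was made into stranded polyadenylated libraries, per the labels' protocols. Tools listed in the submitters' processing notes are TopHat2 2.1.1, cutadapt 2.10, DESeq2 1.36.0 and HTSeq 2.01, with build GRCm39. How reads were assigned to genes, and on which strand, is not given in the sources used here. Raw counts were deposited by the authors: their table holds 1 count per gene and library, and a normalized signal, per the file headers, in which each library's counts were divided by a size factor of its own (largest relative departure 5.2e-10). It has 0 columns of other samples. A total of 6250 genes with a blank count in at least 1 library were left out.

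Genes were kept by edgeR's filterByExpr (minimum count 10), scaled by TMM and compared by the quasi-likelihood F-test with robust dispersion (edgeR 4.0.16, limma 3.58.1, DESeq2 1.42.0, R 4.3.3), adjusted over all 14062 genes. The test was checked on counts simulated from the means and dispersions fitted to these data. Such a check assumes the fitted model and independent libraries, so it tests neither. Fold changes are palatal minus buccal; their SE is the size of the fold change over the square root of F. CPM uses TMM-scaled library sizes. Lengths are merged exons of the GENCODE M21 basic annotation (GRCm38), matched by Ensembl ID for all 41 members. Ratios add 0.5 to each count. A count of 0 was given a ceiling of 3 counts, for counting error only.

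Members, lists, ratios and tests were chosen with earlier results of these data known. Members past the threshold with a log2 fold change of at least 0.5 in size, and all 7 acylceramide genes, are given by library. Of the companion genes, the 8 with the smallest p, all lower in palatal, are given, with some other companion genes beside them. Alternatives were RLE and upper-quartile scaling, no filter or at least 1 CPM in 5 libraries, DESeq2, limma-voom, the replicate number as a block, an FDR of 0.01, the deposited normalized values (for ratios), each library left out and, added after seeing the data, library 2 left out of both sides.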

Additional observations from a re-analysis of the deposited data

Results flagged for a closer look

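Of 78 groups of 5 libraries (39 members on 2 sides), 2 had a library far from the other 4, where chance flags about 1 in 20 groups. Palatal library 2 had 249 CPM of Cyp4f39, and the other palatal libraries had 189.6 to 199.7 CPM, a gap of 0.809 of the group's range on the log2 scale. The same library had 153 CPM of Smpd1, with 104 to 115 CPM in the others, a gap of 0.746 of the range. Neither gene passed the test between the sides, with or without that library; without it the log2 fold change was -0.03 for Cyp4f39 and -0.11 for Smpd1 (edgeR adjusted p = 0.781 and 0.418).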

How the results depend on the processing

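Of 701 member values under an alternative 663 stayed on their side of the threshold, 33 lost the call, 5 gained it and 0 called values reversed; of 88 ratio values 85 stayed, 3 gained and 0 reversed. Lipn, Lipk, Elovl6, Acer1, Alox12e and Lipm were the members that lost it under some alternative; the other 19 called members kept it under every alternative run at an FDR of 0.05. Without a filter 13 members were lower (16 in the test as reported) and with DESeq2, upper-quartile scaling or at least 1 CPM in 5 libraries 15 were. At an FDR of 0.01, 7 members were higher, 11 lower, and 7 companion genes (11 as reported) were higher. Leaving out each library in turn gave 8 to 10 members higher and 13 to 17 lower, 9 to 11 companion genes higher and 23 to 27 lower, and 2348 to 2613 genes higher and 2516 to 2817 lower in all. Without library 2 of both sides 7 members were higher and 15 lower. With single libraries left out, the difference in log2 ratio ran from 0.15 to 0.23 for Sptssb over Sptssa and from -0.40 to -0.28 for Elovl4 over Elovl1, and the 4 pairs past the threshold stayed past it. The median of all genes moved by little between scalings (0.01 to 0.02). Same-numbered libraries of the 2 sides correlated at -0.02 to 0.33 in their deviations from the side means. Of 5 palatal libraries 2 correlated best with their own number. The numbers were not taken as pairs, but this check cannot settle whether they are, since the labels do not say. With the replicate number as a block the SE was smaller for most members, such as Sptlc3 (0.160 to 0.084), and larger for others, such as Elovl1 (0.087 to 0.093). With the replicate number as a block 9 members were higher and 15 lower, since Lipn did not pass (-0.81, edgeR adjusted p = 0.0585), and 2643 genes were higher and 2875 lower in all. Elovl3 and Fa2h had too few counts for a test, and Lipn rests on 43 counts over the palatal and 79 over the buccal libraries.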

Other observations

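Over the 39 tested members, palatal library 1 was the lowest of its side for 15 (38.5%, against 18.1% of all 14062 tested genes) and palatal library 5 the highest for 16 (41%, against 21.2%). On the buccal side library 1 was the lowest for 20 (51.3%, against 23.3%) and library 5 the highest for 17 (43.6%, against 16.9%). These libraries were picked out after their ranks were seen, and the difference from all genes was not tested. Among members with a mean of at least 5 CPM, the coefficient of variation within a side had a median of 9.49% in palatal and 10.9% in buccal libraries, and its largest value, 33.8% in palatal and 56.8% in buccal libraries, belonged to Alox12e on both sides.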
